A study of Homo sapiens with 15 samples.

Results

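The loss of both hypoxia-inducible factor α subunits under low oxygen was examined in the glioblastoma line U87-MG, an established human cell line, with 6 of the 15 miRNA-Seq libraries of the study: 3 libraries of HIF1α/HIF2α-KO cells and 3 of control cells. The knockout cells carried CRISPR/Cas9 knockouts of HIF1A and of EPAS1, the genes of HIF1α and HIF2α, made with guides delivered by lentivirus, whereas the control cells had no such interference. Both groups were kept in 1% O2 for 24 h. The other libraries, which served as reference levels and entered the estimate of the spread behind each test, were 3 each of control cells in 21% O2 and of HIF1α-KO and HIF2α-KO cells in 1% O2. Whether the knockout cells were single clones or pools is not given in the sources used here, nor is it stated that the replicates of a group were separate cultures, so the p-values measure the spread between these libraries only. The mRNAs of the targeted genes are not measured by this assay.

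HIF1α and HIF2α pair with HIF1β and bind a short DNA element, the hypoxia response element, near the genes they activate. A mature miRNA is cut from an arm, 5p or 3p, of a hairpin that lies in a longer transcript, often inside an intron of a host gene, and hairpins close together can be cut from one transcript. The seed, bases 2 to 8 of the miRNA, pairs with the target mRNAs, so miRNAs with the same seed are counted as a family. miR-210 is the best known miRNA target of HIF1α, and the MIR379-MIR656 cluster in chromosome band 14q32 is a large imprinted miRNA cluster that is expressed from the maternal chromosome.

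Of 1707 miRNAs listed, 562 had enough counts to be tested, and 33 of them (5.87%) differed between HIF1α/HIF2α-KO and control cells in 1% O2 (edgeR quasi-likelihood test, adjusted p under 0.05). Expression was lower in the knockout cells for 26 miRNAs (4.63% of those tested) and higher for 7 (1.25%). At an unadjusted p under 0.05, 24.4% passed. The 33 miRNAs had 32 different seeds, whereas many shared a hairpin or came from hairpins close together in the genome. Of the 26 lower miRNAs, 11 came from the MIR379-MIR656 cluster. Both arms of the miR-210 hairpin were lower, and so were smaller sets of the miR-105 and miR-767 group and the miR-449 group. Lower miRNAs also came from the HOX gene clusters, but their hairpins had no other hairpin within 10000 bases. Among the higher miRNAs, a pair came from the miR-30 hairpins of LINC00472. Annotated genes on the same strand held the hairpins of 27 of the 33. The share over all tested miRNAs was not determined, so this count does not set the 33 apart.

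The mature sequences that the results turn on are given 5′ to 3′ from RefSeq (GRCh38.p14), with the seed in capitals. The arms of miR-210 come first, because miR-210-3p had the smallest adjusted p, followed by the 11 lower miRNAs of the MIR379-MIR656 cluster in the order of their hairpins.
hsa-miR-210-3p: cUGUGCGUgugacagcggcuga
hsa-miR-210-5p: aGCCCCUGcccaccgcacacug
hsa-miR-379-5p: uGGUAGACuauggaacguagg
hsa-miR-379-3p: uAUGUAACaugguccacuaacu
hsa-miR-411-5p: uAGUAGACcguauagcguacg
hsa-miR-411-3p: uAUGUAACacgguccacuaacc
hsa-miR-323a-3p: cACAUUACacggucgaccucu
hsa-miR-758-3p: uUUGUGACcugguccacuaacc
hsa-miR-654-3p: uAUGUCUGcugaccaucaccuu
hsa-miR-381-3p: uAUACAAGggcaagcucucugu
hsa-miR-382-3p: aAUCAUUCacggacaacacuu
hsa-miR-134-5p: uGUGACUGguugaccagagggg
hsa-miR-409-3p: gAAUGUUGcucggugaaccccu

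The only seed shared among the 33 was that of miR-379-3p and miR-411-3p. Over their 22 bases these differed at 2 positions, U10C and U22C, counted from the 5′ end with the base of miR-379-3p first. How reads that fit both were assigned is not given in the sources used here.

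The other sequences belong to the lower miRNAs of smaller clusters and families, to miR-424-3p, and to the miR-30 arms that were higher.
hsa-miR-105-5p: uCAAAUGCucagacuccuguggu
hsa-miR-767-5p: uGCACCAUgguugucugagcaug
hsa-miR-615-3p: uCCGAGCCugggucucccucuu
hsa-miR-196a-5p: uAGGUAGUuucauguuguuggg
hsa-miR-424-3p: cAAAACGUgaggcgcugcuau
hsa-miR-449a: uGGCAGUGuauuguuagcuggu
hsa-miR-449c-5p: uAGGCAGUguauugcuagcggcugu
hsa-let-7i-5p: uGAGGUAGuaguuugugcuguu
hsa-let-7d-3p: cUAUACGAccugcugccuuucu
hsa-miR-30a-5p: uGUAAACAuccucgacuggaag
hsa-miR-30c-2-3p: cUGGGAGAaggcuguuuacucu

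Total counts of the 6 libraries ranged from 10620234 to 22496373, and levels are given as CPM, the count scaled by library size, with library sizes adjusted by the trimmed mean of M-values (TMM). The control library of replicate 1 stood apart from the other 5 on the first principal component, which held 43.2% of the variance. It also had the highest summed level of the endothelial miR-126 arms, 50.8 CPM, against 4.3 and 5.0 CPM in the other control libraries and 6.6 to 15.7 CPM in the knockout libraries. Without this library 18 miRNAs passed. The number was also 18 without control replicate 2 or knockout replicate 3, 15 without knockout replicate 1, 32 without control replicate 3 and 31 without knockout replicate 2. Of the 33 themselves, 16 passed without control replicate 1, 17 without control replicate 2, 26 without control replicate 3, 15 without knockout replicate 1, 24 without knockout replicate 2 and 17 without knockout replicate 3. A total of 13 miRNAs passed in all 6 of these fits and under all other settings in which they were tested: miR-210-3p, miR-210-5p, miR-379-3p, miR-379-5p, miR-411-3p, miR-654-3p, miR-381-3p, miR-382-3p, miR-105-5p, miR-615-3p, miR-424-3p, miR-30a-5p and miR-30c-2-3p. When only the 6 libraries compared were fitted, 26 of 520 tested miRNAs passed (21 lower and 5 higher), of which 21 were among the 33. Of the other 12, miR-218-2-3p was not tested there and 11 had adjusted p from 0.0612 to 0.102 (edgeR). These were miR-758-3p, let-7i-5p, let-7d-3p, miR-3617-5p, miR-449a, miR-455-3p and 5 of the 7 higher miRNAs (miR-5010-3p, miR-192-5p, miR-182-5p, miR-582-3p and miR-616-5p). Scaling by total counts alone gave 25 lower and 25 higher miRNAs in place of 26 and 7.

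**Figure D1:**
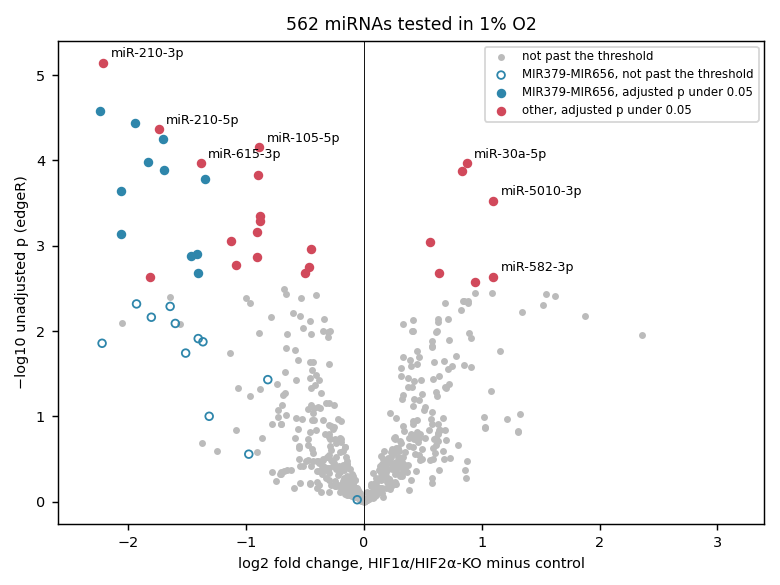
Each point is 1 of the 562 miRNAs tested, with the log2 fold change of HIF1α/HIF2α-KO minus control cells on the x axis and −log10 of the unadjusted p (edgeR) on the y axis. The miRNAs of the MIR379-MIR656 cluster (blue) lie on the left, where 26 of the 33 miRNAs past the threshold are found.

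For each of the 33 miRNAs, the 3 knockout libraries lay entirely below or entirely above the 3 control libraries. Among all tested miRNAs 30.4% were separated in this way. The 33 were selected by a test on these same libraries, so their separation is not separate evidence of a difference. An exact permutation test of 3 libraries against 3 cannot give a two-sided p below 0.1, and it gave 0.1 for each of the 33. The significance given below therefore rests on the edgeR quasi-likelihood test, with Benjamini-Hochberg adjustment over the 562 miRNAs.

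**Figure D2:**
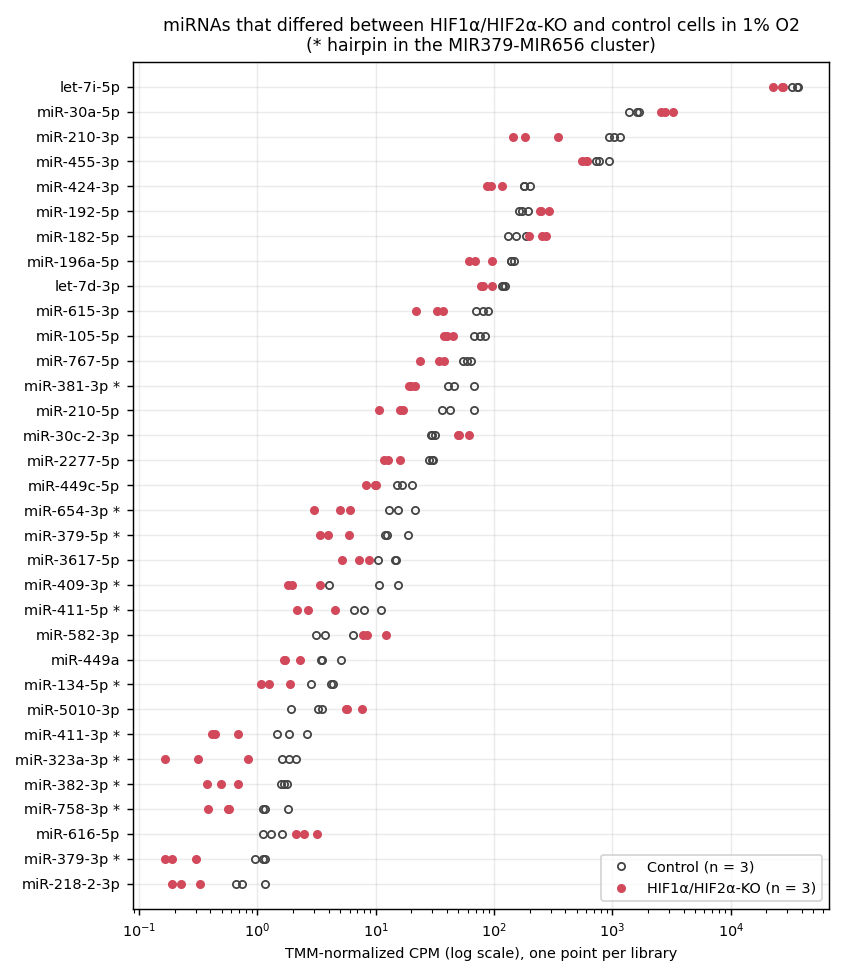
TMM-normalized CPM (x axis, log scale) of the 33 miRNAs past the threshold (rows, by level in control cells), with open circles for the 3 control and filled circles for the 3 HIF1α/HIF2α-KO libraries in 1% O2. The rows were selected by the test on these libraries, and the circles of the groups do not overlap in any of them. Asterisks mark the 11 miRNAs of the MIR379-MIR656 cluster.

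miR-210, which is known to lower mitochondrial respiration in hypoxic cells, is encoded by a hairpin at chr11:568089-568198 (minus strand, GRCh38), in an intron of all 4 transcripts of the long noncoding RNA MIR210HG that span it. miR-210-3p was measured at 1152, 1039 and 935 CPM in the control libraries and at 180.8, 145.8 and 347.7 CPM in the HIF1α/HIF2α-KO libraries. The highest knockout value was thus well below the lowest control value, and the mean was lower by a factor of 4.64 (log2 fold change −2.21 ± 0.32 SE, adjusted p = 0.00402, edgeR). miR-210-5p, the less abundant arm, was at 68.2, 42.1 and 36.0 CPM in control cells and at 16.9, 10.7 and 16.1 CPM in knockout cells (log2 fold change −1.74 ± 0.30 SE, adjusted p = 0.00605, edgeR).

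In control cells in 21% O2, miR-210-3p was at 1018, 1308 and 1236 CPM, so that the hypoxic control libraries overlapped with the normoxic ones. The log2 fold change of hypoxic over normoxic control cells was −0.19 (adjusted p = 0.841, edgeR), and 0 miRNAs passed the test in that comparison (35 at an unadjusted p under 0.05). In HIF1α-KO cells the values were 249.6, 240.5 and 435.9 CPM, a range that overlapped with that of the double knockout (log2 difference of double minus single knockout −0.46, adjusted p = 0.546, edgeR). HIF2α-KO cells had 1443, 1996 and 1210 CPM, all above the control libraries in 1% O2 (log2 fold change 0.57, adjusted p = 0.400, edgeR). The level in HIF1α/HIF2α-KO cells was lower than in HIF2α-KO cells (log2 difference −2.79, adjusted p = 0.000381, edgeR).

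The promoter of MIR210HG is shown because it lies upstream of the miRNA with the smallest adjusted p. The window (RefSeq, GRCh38.p14, chr11:568408-568707, minus strand) covers 250 bases before and 50 after the gene start, with capitals for matches to the core of the hypoxia response element, searched on both strands as ACGTG and GCGTG.
MIR210HG promoter: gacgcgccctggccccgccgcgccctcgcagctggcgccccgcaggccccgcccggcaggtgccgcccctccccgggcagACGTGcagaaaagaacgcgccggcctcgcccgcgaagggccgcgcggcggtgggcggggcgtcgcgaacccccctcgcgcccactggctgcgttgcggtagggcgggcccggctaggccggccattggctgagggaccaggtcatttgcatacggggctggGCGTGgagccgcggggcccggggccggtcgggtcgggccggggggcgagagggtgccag
It held 2 matches, at −170 and −9 from the start. Such a match is common: 48.4% of the 35116 promoter windows held at least 1.

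Of 13 tested members of a list of hypoxia-regulated miRNAs, 2 passed, both arms of miR-210, beside 5.87% of all tested miRNAs, and the list's median log2 fold change was −0.16 beside −0.02 for all tested miRNAs. miR-26a-5p, the most abundant member, had a log2 fold change of 0.18 (adjusted p = 0.650, edgeR). miR-23a-3p and miR-107 had log2 fold changes of 0.03 and 0.15, and miR-27a-3p one of −0.30 (adjusted p = 0.074, edgeR).

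The largest group of lower miRNAs came from the MIR379-MIR656 cluster, 42 hairpins on the plus strand (chr14:101022066-101066801, GRCh38). These miRNAs are abundant in embryonic and neural tissue. The files list 62 mature miRNAs of the cluster, of which 23 passed the filter on low counts and 3 had no count in the 6 libraries. Of the 23, 11 passed the test, all lower in HIF1α/HIF2α-KO cells, against 4.63% of all tested miRNAs. The log2 fold change was negative for each of the 23, with a median of −1.60, beside a median of −0.02 for all tested miRNAs. With upper quartile factors or with limma on quantile-normalized values 22 of the 23 were negative, and the limma median was −0.71. A miRNA could pass the filter through the control libraries alone. When no filter on low counts was applied, 55 of the 62 were negative, and the sign of the 3 without a count in the 6 libraries carries no information.

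The summed level of the 62 listed miRNAs was 126.1, 173.4 and 106.6 CPM in control cells and 39.5, 50.7 and 53.1 CPM in HIF1α/HIF2α-KO cells in 1% O2. All knockout libraries were thus below all control libraries. The sums were 109.5 to 158.6 CPM in HIF1α-KO cells, 73.0 to 87.1 CPM in HIF2α-KO cells and 69.7 to 128.5 CPM in normoxic control cells, so that the HIF1α/HIF2α-KO libraries had the 3 lowest sums of all 15. In bulk RNA, fewer cells that express a miRNA and less of it in each cell cannot be told apart.

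**Figure D3:**
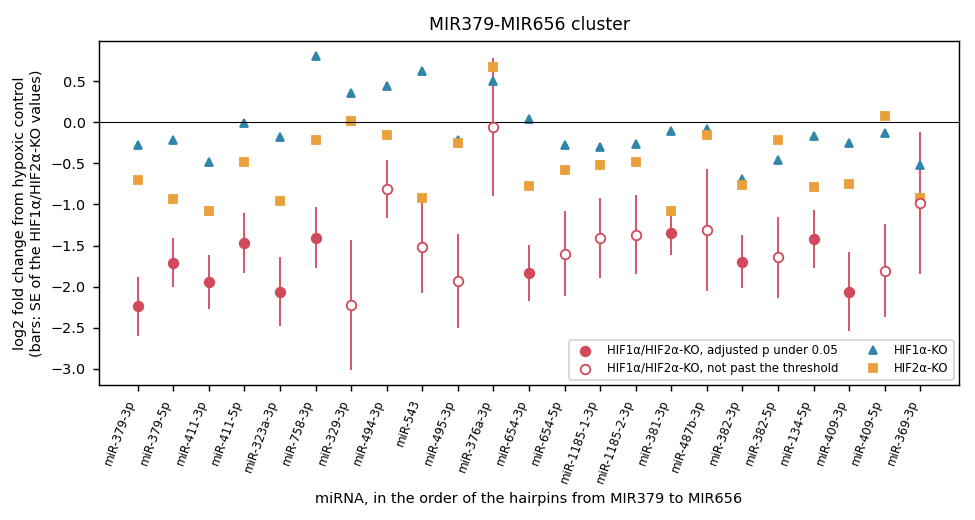
Log2 fold change from hypoxic control cells (y axis) of the 23 tested miRNAs of the MIR379-MIR656 cluster in the order of their hairpins (x axis), with circles for HIF1α/HIF2α-KO (bars, SE; filled, adjusted p under 0.05), triangles for HIF1α-KO and squares for HIF2α-KO cells. All circles are below 0, from −0.06 to −2.24, and filled circles occur from the first hairpin to MIR409, the 38th of 42.

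The most abundant member, miR-381-3p, was measured at 45.9, 67.9 and 40.9 CPM in control cells and at 19.1, 19.9 and 21.6 CPM in knockout cells (log2 fold change −1.35 ± 0.26 SE, adjusted p = 0.00705, edgeR). Its hairpin lies in an intron of MIR381HG. The knockout libraries varied little among themselves and all lay below the lowest control library.

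miR-654-3p was at 15.4, 21.6 and 13.0 CPM in control cells and at 3.02, 6.06 and 5.0 CPM in knockout cells (log2 fold change −1.83 ± 0.34 SE, adjusted p = 0.00672, edgeR). The other arm, miR-654-5p, had a log2 fold change of −1.60 (adjusted p = 0.0672, edgeR), with overlapping groups. No annotated gene on the same strand spans this hairpin, which is also the case for those of miR-382-3p and miR-134-5p.

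The first hairpins of the cluster, MIR379 and MIR411, were the only ones in it with both arms past the threshold, and lie in an intron of the long noncoding RNA MEG8. miR-379-5p was at 12.4, 18.8 and 11.9 CPM in control cells and at 3.97, 3.41 and 5.90 CPM in knockout cells (log2 fold change −1.71 ± 0.30 SE, adjusted p = 0.00622, edgeR). miR-411-5p was at 7.92, 11.02 and 6.55 CPM in control cells and at 2.14, 2.65 and 4.51 CPM in knockout cells (log2 fold change −1.47 ± 0.37 SE, adjusted p = 0.0308, edgeR). The 3p arms of both, which share a seed, were rarer but changed by similar or larger amounts.

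miR-379-3p was counted 12, 22 and 16 times in the control libraries and 3, 4 and 2 times in the knockout libraries, which is at or near the floor of 3 counts. The knockout to control ratio of these counts, scaled to library size, was 0.208 with a 95% interval of 0.0900 to 0.427, which covers counting error only. miR-411-3p had 16, 43 and 36 counts in control and 7, 9 and 5 counts in knockout libraries (log2 fold change −1.95 ± 0.33 SE, adjusted p = 0.00605, edgeR). miR-323a-3p, also in the MEG8 intron, had 23, 43 and 22 counts in control and 5, 11 and 2 counts in knockout libraries, a ratio of 0.236 with a counting interval of 0.134 to 0.396.

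Further along the cluster, miR-409-3p, in an intron of MEG9, was at 10.6, 15.3 and 4.0 CPM in control cells and at 1.83, 3.41 and 1.97 CPM in knockout cells (log2 fold change −2.06 ± 0.48 SE, adjusted p = 0.0214, edgeR). The lowest control library and the highest knockout library nearly touched. miR-134-5p, a miRNA known from dendritic spines of neurons, had a log2 fold change of −1.42 ± 0.35 SE (adjusted p = 0.0306, edgeR), and its highest knockout value of 1.89 CPM was under its lowest control value of 2.84 CPM. miR-382-3p and miR-758-3p had log2 fold changes of −1.69 (adjusted p = 0.00672, edgeR) and −1.41 (adjusted p = 0.0394, edgeR), with means below 2 CPM in both groups.

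Of the 12 tested members that did not pass, miR-495-3p was nearest to the threshold (log2 fold change −1.93, adjusted p = 0.054, edgeR), and miR-376a-3p, with 0 to 10 counts in the knockout libraries, was the one with the smallest difference (log2 fold change −0.06 ± 0.84 SE). miR-1185-1-3p and miR-1185-2-3p, whose hairpins are near-identical copies, had log2 fold changes of −1.41 and −1.37. The separate group of miRNAs upstream in 14q32 was rarely counted: of 12 listed, only miR-127-3p was tested, with a log2 fold change of −0.20 and overlapping groups.

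The number of cluster members past the threshold was 6 without knockout replicate 1, 7 without control replicate 1 or control replicate 2, 8 without knockout replicate 3, 9 without knockout replicate 2 and 11 without control replicate 3, and all of those that passed were lower. The cluster sum of control replicate 1, with the high miR-126 level, was 126.1 CPM. Control replicates 2 and 3 had 173.4 and 106.6 CPM, and the knockout libraries 39.5 to 53.1 CPM. What part control replicate 1 has in the cluster difference was not tested.

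Cluster members were also lower in the double than in the single HIF1α knockout. In HIF1α/HIF2α-KO against HIF1α-KO cells, 8 of 562 miRNAs passed (1.42%), all lower, and 7 of the 8 were cluster members: miR-379-3p, miR-379-5p, miR-411-3p, miR-323a-3p, miR-758-3p, miR-654-3p and miR-381-3p. Their log2 differences ranged from −1.24 for miR-381-3p (adjusted p = 0.032, edgeR) to −2.21 for miR-758-3p (adjusted p = 0.0157, edgeR). In HIF1α-KO against hypoxic control cells, the 11 members called above had log2 fold changes from −0.69 to 0.80, and none passed. In HIF2α-KO against hypoxic control cells they ranged from −1.08 to −0.22, and again none passed. None of the 11 passed in HIF1α/HIF2α-KO against HIF2α-KO cells either. These comparisons share control or knockout libraries, and the interaction of both knockouts, which asks whether their log2 effects add up, was past the threshold for 0 of 562 miRNAs (59 at an unadjusted p under 0.05, edgeR).

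**Figure D4:**
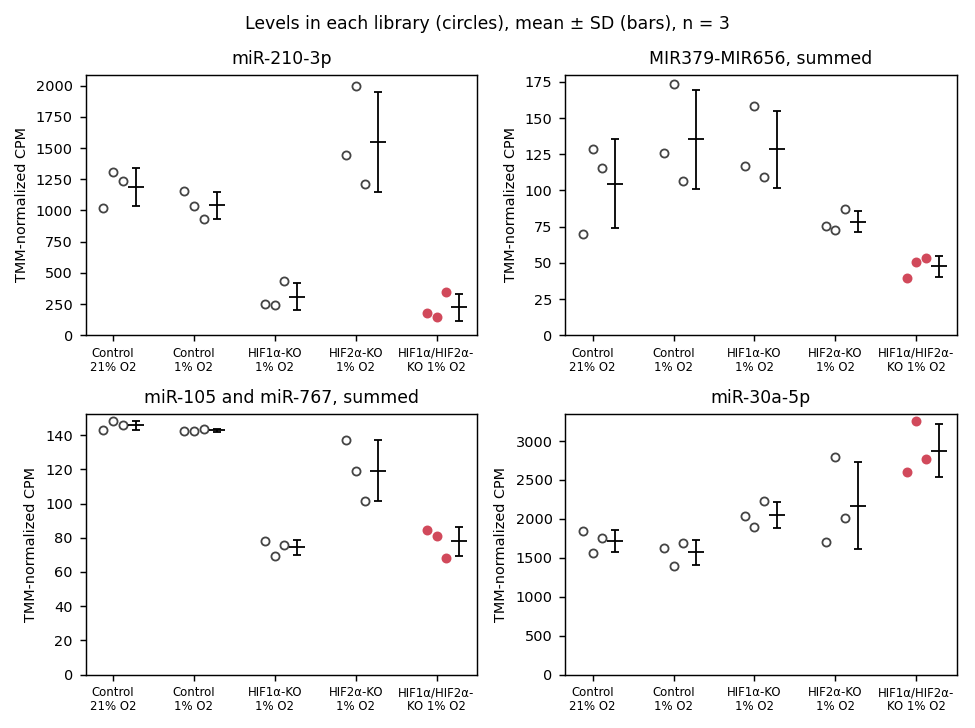
Levels in TMM-normalized CPM (y axes, from 0) of miR-210-3p, the MIR379-MIR656 cluster sum, the miR-105 and miR-767 sum and miR-30a-5p in the 5 groups; circles are libraries and bars are mean ± SD (n = 3). miR-210-3p and the miR-105 and miR-767 sum were low in both groups without HIF1α, whereas the cluster sum was lowest in HIF1α/HIF2α-KO cells, at 39.5 to 53.1 CPM. HIF2α-KO cells had cluster sums of 73.0 to 87.1 CPM, also below those of the hypoxic control cells.

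The miR-105 and miR-767 hairpins lie together on the X chromosome (chrX:152392219-152394492, minus strand, GRCh38), in an intron of GABRA3, which encodes a GABA receptor subunit and is expressed in some tumours outside its normal tissue. Of the 4 arms tested, miR-105-5p and miR-767-5p passed, both lower (4.63% among all tested miRNAs). miR-105-5p was at 67.3, 76.4 and 83.3 CPM in control cells and at 44.8, 37.9 and 39.8 CPM in knockout cells (log2 fold change −0.89 ± 0.16 SE, adjusted p = 0.00651, edgeR). miR-767-5p was at 63.6, 58.6 and 54.4 CPM in control cells and at 34.1, 37.8 and 23.8 CPM in knockout cells (log2 fold change −0.88 ± 0.20 SE, adjusted p = 0.0168, edgeR). The knockout libraries lay below the control libraries for all 4 arms (16.7% of all tested miRNAs), and miR-105-3p and miR-767-3p had log2 fold changes of −0.67 (adjusted p = 0.213, edgeR) and −0.66 (adjusted p = 0.097, edgeR).

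The sum of the 4 arms was 142.1 to 143.8 CPM in control cells, 68.1 to 84.5 CPM in HIF1α/HIF2α-KO cells, 69.4 to 78.2 CPM in HIF1α-KO cells and 101.3 to 137.2 CPM in HIF2α-KO cells. The sums of the double and the single HIF1α knockout overlapped, and both were below those of the other groups. miR-105-5p is cut from both MIR105-1 and MIR105-2, so its counts do not separate these copies. miR-767-5p did not pass without control replicate 1, control replicate 2, knockout replicate 1 or knockout replicate 3 (adjusted p up to 0.0855, edgeR), and miR-105-5p passed in each of these fits.

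Of the 7 tested miRNAs of the HOX clusters, whose hairpins sit among the genes of developmental transcription factors, 2 passed, both lower, beside 4.63% among all tested miRNAs. miR-615-3p, from a hairpin in introns of HOXC4 and HOXC5, was at 70.1, 89.4 and 79.9 CPM in control cells and at 37.0, 22.0 and 32.8 CPM in knockout cells (log2 fold change −1.38 ± 0.26 SE, adjusted p = 0.00672, edgeR). The other arm, miR-615-5p, had a mean of 0.732 CPM in control cells and a log2 fold change of −0.88 (adjusted p = 0.195, edgeR). miR-196a-5p was at 139.3, 147.7 and 138.02 CPM in control cells and at 61.8, 96.5 and 68.6 CPM in knockout cells (log2 fold change −0.91 ± 0.21 SE, adjusted p = 0.0214, edgeR). It is cut from MIR196A1 in an intron of HOXB7 and from MIR196A2 in an intron of HOXC6, and differs by 1 base from miR-196b-5p, which had too few counts to be tested. miR-196a-5p did not pass without control replicate 1, control replicate 2, knockout replicate 1 or knockout replicate 3 (adjusted p up to 0.085, edgeR). miR-10a-5p and miR-10b-5p, the abundant miRNAs of the HOXB and HOXD clusters, had log2 fold changes of 0.08 and 0.10.

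The miR-449 group, best known from ciliated cells, lies in an intron of CDC20B (chr5:55170532-55172353, minus strand, GRCh38). miR-449c-5p was at 20.2, 15.04 and 16.7 CPM in control cells and at 9.82, 10.0 and 8.28 CPM in knockout cells (log2 fold change −0.88 ± 0.19 SE, adjusted p = 0.0158, edgeR). miR-449a was at 3.50, 3.46 and 5.10 CPM in control cells and at 1.70, 1.67 and 2.30 CPM in knockout cells (log2 fold change −1.09 ± 0.28 SE, adjusted p = 0.0365, edgeR). miR-34a-5p, which has the seed of miR-449a, had a log2 fold change of 0.22 (adjusted p = 0.62, edgeR). Each fit that left out 1 library moved miR-449a above the threshold, with adjusted p up to 0.117 in edgeR. miR-449c-5p did not pass without control replicate 1, knockout replicate 1 or knockout replicate 3 (adjusted p up to 0.085, edgeR). Nor did it pass when no filter on low counts was applied.

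Of the let-7 family, miRNAs that repress growth and stem cell genes, 2 of 20 tested members passed, both lower, beside 4.63% lower among all tested miRNAs. let-7i-5p, the most abundant of the 33 miRNAs, was at 33243, 36290 and 36884 CPM in control cells and at 27402, 27853 and 22868 CPM in knockout cells (log2 fold change −0.45 ± 0.11 SE, adjusted p = 0.0281, edgeR). let-7d-3p was at 123.9, 115.7 and 119.5 CPM in control cells and at 95.8, 77.7 and 80.4 CPM in knockout cells (log2 fold change −0.50 ± 0.13 SE, adjusted p = 0.0394, edgeR). Of the 9 tested miRNAs with the let-7 seed GAGGUAG, 8 had negative log2 fold changes, and the median was −0.38. let-7d-5p (log2 fold change −0.68, adjusted p = 0.0528, edgeR) and let-7g-5p (−0.41, adjusted p = 0.0534, edgeR) were just outside the threshold, and let-7i-5p differs from let-7g-5p by only 2 bases. let-7a-5p, the most abundant family member, had a log2 fold change of −0.37 (adjusted p = 0.211, edgeR). With limma, 12 of the 20 family members were negative. let-7i-5p passed in 1 of the 6 fits without a library and let-7d-3p in 0 of them. Among the 11 settings that kept all 6 libraries, let-7i-5p did not pass in 4 and let-7d-3p did not in 6. The log2 fold change of let-7i-5p ranged from −0.48 to −0.12 over all fits.

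Near-identical miRNAs are hard to separate in these counts. In each of the 6 libraries, miR-100-5p and miR-99a-5p, which differ little in sequence, had almost the same count, for example 1846832 and 1814497 in control replicate 1, and their log2 fold changes were both −0.08. How reads that fit several miRNAs were counted is not given in the sources used here, so differences between let-7 members or between miR-30a-5p and miR-30e-5p, which differ by 1 base, are uncertain.

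The remaining 5 lower miRNAs each came from a different place. miR-424-3p, of the MIR450B-MIR424 cluster (chrX:134540185-134546711, minus strand, GRCh38), was at 179, 178 and 200 CPM in control cells and at 94.3, 87.6 and 116 CPM in knockout cells (log2 fold change −0.90 ± 0.17 SE, adjusted p = 0.00688, edgeR). The other arm, miR-424-5p, of the miR-15/16 seed family, was at 11.2, 15.1 and 15.5 CPM in control cells and at 14.04, 15.2 and 22.8 CPM in knockout cells (log2 fold change 0.31 ± 0.24 SE, adjusted p = 0.479, edgeR). The arms of this hairpin thus had log2 fold changes of opposite sign, and the 6 other tested miRNAs of the cluster did not pass.

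miR-2277-5p, whose hairpin overlaps an exon of FAM172A, was at 29.9, 28.4 and 30.7 CPM in control cells and at 11.8, 12.7 and 16.2 CPM in knockout cells (log2 fold change −1.13 ± 0.27 SE, adjusted p = 0.0242, edgeR). miR-455-3p, from an intron of the collagen gene COL27A1, was at 940, 774 and 721 CPM in control cells and at 594, 558 and 610 CPM in knockout cells (log2 fold change −0.47 ± 0.12 SE, adjusted p = 0.0365, edgeR). miR-3617-5p had a log2 fold change of −0.91 ± 0.23 SE (adjusted p = 0.0308, edgeR), with 10.4 to 14.7 CPM in control and 5.16 to 8.79 CPM in knockout cells. Each of these 3 lost significance in at least 4 of the 6 fits without a library. miR-455-3p also did not pass in 6 of the 11 settings that kept all 6 libraries.

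miR-218-2-3p, from an intron of SLIT3, had 8, 27 and 9 counts in control libraries and 3, 3 and 4 counts in knockout libraries, and so was at the floor in the latter. The other arm, miR-218-5p, which can come from a second hairpin too, was far more abundant, at 275.5 to 511.6 CPM in control cells and 246.6 to 338.5 CPM in knockout cells, and had a log2 fold change of −0.59 (adjusted p = 0.101, edgeR).

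Among the 7 higher miRNAs, miR-30a-5p and miR-30c-2-3p had the smallest adjusted p. Their hairpins, at chr6:71403551-71403621 and chr6:71376960-71377031 (minus strand, GRCh38), form no cluster but both lie in introns of the long noncoding RNA LINC00472. miR-30a-5p, which acts on autophagy and epithelial-to-mesenchymal transition genes, was at 1629, 1391 and 1687 CPM in control cells and at 2597, 3257 and 2775 CPM in knockout cells (log2 fold change 0.87 ± 0.16 SE, adjusted p = 0.00672, edgeR). miR-30c-2-3p was at 29.03, 29.9 and 31.4 CPM in control cells and at 50.6, 61.1 and 49.2 CPM in knockout cells (log2 fold change 0.83 ± 0.16 SE, adjusted p = 0.00672, edgeR). Both were separated from the controls by more than the spread within either group.

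The opposite arms of these hairpins were not past the threshold. miR-30a-3p was at 779, 1018 and 1006 CPM in control cells and at 962, 929 and 894 CPM in knockout cells (log2 fold change −0.01 ± 0.13 SE). miR-30c-5p, which is also cut from MIR30C1, had a log2 fold change of 0.01 ± 0.16 SE. Of the 11 tested miR-30 miRNAs, no others passed. miR-30e-5p, with the seed of miR-30a-5p, had a log2 fold change of 0.39 (adjusted p = 0.119, edgeR).

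miR-192-5p, which p53 is known to induce, was at 162.0, 171.8 and 195.2 CPM in control cells and at 243, 248 and 292 CPM in knockout cells (log2 fold change 0.56 ± 0.13 SE, adjusted p = 0.0242, edgeR). miR-215-5p, with the same seed, had a log2 fold change of 0.42 (adjusted p = 0.0742, edgeR), and all 8 tested miRNAs of the miR-34, miR-192, miR-194 and miR-215 list had positive values, with a median of 0.37 (2 of 12 were negative without a filter on low counts). miR-182-5p, of the MIR182-MIR183 cluster on chromosome 7, was at 152, 185 and 130 CPM in control cells and at 253, 277 and 197 CPM in knockout cells (log2 fold change 0.64 ± 0.17 SE, adjusted p = 0.0394, edgeR). miR-192-5p and miR-182-5p did not pass with only the 6 libraries (adjusted p = 0.0794 and 0.0988, edgeR) or without a filter on low counts. miR-192-5p was also lost without control replicate 1, control replicate 2 or knockout replicate 3, and miR-182-5p without control replicate 1, control replicate 3, knockout replicate 1 or knockout replicate 2. The cluster partners of miR-182-5p, miR-96-5p and miR-183-5p, had log2 fold changes of 0.61 (adjusted p = 0.074, edgeR) and 0.45 (adjusted p = 0.35, edgeR).

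The other higher miRNAs were rarer and came from introns or exons of protein-coding genes. None of these 3 passed with only the 6 libraries (adjusted p = 0.0663 for miR-5010-3p, 0.0926 for miR-582-3p and 0.102 for miR-616-5p, edgeR). miR-5010-3p, whose hairpin lies in ATP6V0A1, a subunit gene of the vacuolar proton pump, was at 1.94 to 3.50 CPM in control cells and at 5.604 to 7.58 CPM in knockout cells. miR-582-3p, from PDE4D, was at 3.13 to 6.41 CPM in control cells and at 7.87 to 12.1 CPM in knockout cells, and its other arm, miR-582-5p, had a log2 fold change of 0.91 (adjusted p = 0.081, edgeR). miR-616-5p, from an intron of the stress response gene DDIT3, was at 1.11 to 1.601 CPM in control cells and at 2.12 to 3.20 CPM in knockout cells.

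For 23 of the 33 miRNAs the other arm of the hairpin was tested as well. In 21 of these the log2 fold changes of the arms had the same sign, the exceptions being miR-30a and miR-424. The 21 include miR-30c-2-3p, although its other arm, miR-30c-5p, had a value of 0.01 ± 0.16 SE. The share of same signs over all tested hairpins was not determined. Both arms passed for miR-210, miR-379 and miR-411, so each of these hairpins is counted under both of its arms. For let-7i the rarer arm had the larger log2 fold change, −1.01 ± 0.29 SE for let-7i-3p, which did not pass (adjusted p = 0.053, edgeR).

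Some related groups without a called member had log2 fold changes mostly of one sign. All 14 tested miRNAs hosted by CLCN5 on the X chromosome, from miR-532 to miR-502, had positive values (median 0.54, beside −0.02 for all tested miRNAs). In the main comparison 0 passed, with total counts 5 and with DESeq2 4. Both settings also gave more higher miRNAs over all tested, 25 of 562 with total counts beside 7 in the main comparison. miR-500a-5p and miR-500b-5p of the CLCN5 group share most of their sequence and had the same log2 fold change of 0.88. All 7 miR-29 miRNAs were positive (median 0.33), led by miR-29b-3p (log2 fold change 0.94, adjusted p = 0.0534, edgeR), and so were the 8 tested of 35 listed of the miR-548 family (median 0.43), of which 9 were negative without a filter. For the 9 tested miRNAs of the miR-17-92 cluster the median was 0.61, with 3 negative values (1 with total counts or upper quartile factors). The summed level of the cluster, led by miR-92a-3p, overlapped between the groups. It was 9690 to 13031 CPM in control and 10301 to 11223 CPM in knockout cells. In the other direction, miR-335-3p was at 110, 200 and 200 CPM in control cells and at 64.0, 53.6 and 45.0 CPM in knockout cells but did not pass (log2 fold change −1.65 ± 0.48 SE, adjusted p = 0.053, edgeR).

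Other families had 0 miRNAs past the threshold in the edgeR test. The median log2 fold change was −0.07 over 9 tested of the miR-106b-25 and miR-106a-363 clusters, −0.08 over 11 of miR-99, miR-100 and miR-125, −0.11 over 4 of miR-221 and miR-222, −0.08 over 10 of miR-23, miR-27 and miR-24, −0.05 over 7 of miR-130, miR-301 and miR-454 and −0.14 over 9 of miR-181. It was 0.41 over 9 of miR-378, of which 8 were positive and 4 had groups that did not overlap (30.4% of all tested miRNAs). It was −0.24 over 9 of miR-15, miR-16 and miR-195 and −0.08 over 4 of miR-671 and miR-7.

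The values just outside the threshold were those of let-7d-5p (adjusted p = 0.0528, edgeR) and of miR-29b-3p, miR-365a-5p, miR-193a-5p and miR-4423-3p (each 0.0534), beside 0.0458 for miR-616-5p, the last of the 33. Among the 10 most abundant miRNAs of hypoxic control cells only let-7i-5p passed. miR-21-5p, the most abundant, was at 173513 ± 16866 CPM in control and 218500 ± 24687 CPM in knockout cells (SD, n = 3), a log2 fold change of 0.33 (adjusted p = 0.112, edgeR).

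In HIF1α/HIF2α-KO against HIF2α-KO cells, 10 of 562 miRNAs passed (1.78%), 7 lower (1.25%) and 3 higher (0.534%), of which 7 were among the 33. miR-210-3p, miR-210-5p, miR-449c-5p, miR-767-5p and miR-2277-5p were lower and miR-30c-2-3p and miR-582-3p were higher. These directions are those found against control cells, but both comparisons use the same HIF1α/HIF2α-KO libraries. The shared direction is therefore not separate support. The log2 differences ranged from −2.79 for miR-210-3p to 1.27 for miR-582-3p (adjusted p = 0.047, edgeR). In HIF1α-KO against hypoxic control cells 7 miRNAs passed (1.25%), all lower, of which miR-210-3p, miR-210-5p and miR-105-5p were among the 33. That comparison shares the control libraries with the main one. The double knockout did not differ from the HIF1α knockout beyond the spread for miR-105-5p (log2 difference 0.22, adjusted p = 0.621, edgeR).

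Summed markers of other cell types overlapped between the groups, in part through control replicate 1. Neural miRNAs, led by miR-9-5p, summed to 7451 to 11355 CPM in control and 7959 to 9102 CPM in knockout cells. Of the stromal list, led by miR-143-3p, 8 of 9 were tested, with sums of 672.0, 186.0 and 150.8 CPM in control and 281.0, 350.9 and 226.5 CPM in knockout cells. The blood list had 24.1, 4.8 and 5.3 CPM in control and 9.3, 8.5 and 5.5 CPM in knockout cells. Without control replicate 1, all knockout libraries lay above both control libraries in the stromal and blood lists, as they did for miR-126. The epithelial list had 48.9 to 118.7 and 37.9 to 59.9 CPM, and the muscle list 7.6 to 28.9 and 20.8 to 46.4 CPM. The 6 tested epithelial miRNAs all had negative log2 fold changes (median −0.70, and 5 negative with limma). For 1 of them the groups did not overlap (30.4% of all tested miRNAs). No member of these lists, nor an arm of miR-126, passed, and their part in the results above was not tested.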

How the data were processed

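For each library the table deposited by the authors holds raw counts by mature miRNA, whole numbers without normalization. The submitters' processing notes name HISAT2, StringTie and DESeq2, and the supplementary methods name quantile normalization with limma, which the deposited counts do not include. How miRNA reads were aligned and counted, and the genome build, are not given in the sources used here. Libraries were grouped by genotype, oxygen and replicate number in their labels. The floor of 3 counts equalled 0.133 to 0.282 CPM in the 6 libraries, and floors and intervals (95%) cover counting error only.

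Tests were run in edgeR 4.0.16 (R 4.3.3): TMM factors, filterByExpr, 1 fit of all 15 libraries with a mean per group, quasi-likelihood test, Benjamini-Hochberg adjustment over 562 miRNAs. Fold changes are log2. The procedure was tested on simulated data. The members and lists were chosen with earlier results of these data known. Named miRNAs were all called ones, their tested other arms, cluster and seed mates, the 5 next outside the threshold, the 10 most abundant and the most abundant member of each list. Beyond this rule, miR-23a-3p, miR-107 and miR-27a-3p of the hypoxia list and the miRNAs named in groups without a called member were chosen after their values were seen. Hairpins and host genes came from GENCODE v29 (GRCh38), where hairpins within 10000 bases formed a cluster. Sequences came from RefSeq (GRCh38.p14). Alternatives were DESeq2 size factors, total counts, upper quartile factors, limma 3.58.1 on quantile-normalized log2(CPM + 1), DESeq2 1.42.0, no filter, at least 10 counts per library, only the 6 libraries, the replicate number as a block, library sets by miR-126 level as a covariate, miR-21-5p left out, and each library left out. Replicate numbers were checked for pairing by correlating the deviations of same-numbered libraries from their group means.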

Additional observations from a re-analysis of the deposited data

How the results depend on the processing

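Of the 33 miRNAs, 13 passed under every alternative in which they were tested, 18 under each of those that kept all 6 libraries and 14 in every fit without a library, and none changed direction. With a minimum of 10 counts, 6 rare ones (miR-379-3p, miR-411-3p, miR-382-3p, miR-323a-3p, miR-758-3p and miR-218-2-3p) were not tested, and with only the 6 libraries miR-218-2-3p was not tested. The number past the threshold was 50 (25 higher) with total counts, 60 (23 higher) with DESeq2 and 61 (29 higher) with the miR-126 library sets as a covariate. It had 13 higher miRNAs with limma, 19 higher without a filter, where 1707 were tested, and 17 lower with upper quartile factors. Leaving out 1 library gave 15 to 32 miRNAs, 4 to 12 higher and 11 to 22 lower. The cause of these shifts was not tested. Scalings moved the median of all miRNAs by at most 0.07 (log2). With the replicate number as a block, 33 passed (24 lower, 9 higher, 30 shared with the fit without the block), and the value of miR-210-3p was −2.27 on the log2 scale (adjusted p = 0.00784, edgeR). Same-numbered libraries correlated at 0.26, −0.20 and 0.46 in their deviations, so replicate numbers were not taken as pairs. Depth limits miR-379-3p, miR-323a-3p and miR-218-2-3p, with 2 to 4, 2 to 11 and 3 to 4 counts in the knockout libraries.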
